A study of Arabidopsis thaliana with 9 samples.

Results

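A set of 224 genes of Arabidopsis thaliana had more transcript in stamens than in leaf and less in the gynoecium than in leaf. The members were picked from a count table of 32833 loci, of which they make up 0.682%. A member had to reach at least 2 times the leaf mean in stamens and at most 0.5 of the leaf mean in the gynoecium. It also had to reach a mean of 10 CPM in stamens and 1 CPM in leaf, where CPM, counts scaled to a common library total, is a gene's level in a library and a mean is taken over 3 libraries. The rule used all 3 tissue means, so the ratios between tissues are given as a description of the members, with no test. All 224 members are nuclear protein-coding genes, and 124 carry a symbol.

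The libraries come from the accession Col-0 with no mutation or treatment given in the labels. The male group holds 3 libraries labelled stamens, the female group 3 libraries labelled gynoecium and the leaf group 3 libraries labelled leaf, all with the stage label of flower bud differentiation. The series' design text speaks of male and female gametophytes, that is pollen and embryo sacs, where the sample labels name the whole organs. The sample labels are followed here, and which cells were collected cannot be settled from either. RNA was taken with Trizol from leaves and immature floral buds. Whether the 3 libraries of a tissue were made from different plants is not given, so p-values measure the spread between these samples, which may be technical.

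In a stamen the anther makes pollen inside a wall whose innermost layer, the tapetum, feeds the developing spores, secretes lipids and wall material and then breaks down. The endothecium, another wall layer, lays down secondary wall thickenings that help the anther to open. Pollen takes up sugars and amino acids through carriers in its own membrane. A leaf exports sugars and nitrogen through the phloem, and as it ages it dismantles its proteins and membranes for export, while the gynoecium of a young bud is a growing organ that imports them.

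The upstream windows of 6 members are shown here because these genes return in the results below: the member with the highest ratio of stamens to leaf, 3 genes of the methionine cycle and polyamine synthesis, the zinc pump HMA2 and the auxin response factor ARF17. Each window holds the 250 bases before the RefSeq transcript start, 5′ to 3′ on the gene's own strand, from assembly TAIR10.1; the deposited tables rest on TAIR10. Capitals mark 4 motifs, read on both strands. The TATA box was searched as TATAAA and places the start of transcription in many genes. The evening element, known from genes that follow the daily clock, was searched as AATATCT. The W-box, bound by WRKY factors, was searched as TTGACC. The I-box, known from light-regulated genes, was searched as GATAAG. No other locus lies in any of the 6 windows.
AT1G29140, chr1:10178652-10178901, plus strand: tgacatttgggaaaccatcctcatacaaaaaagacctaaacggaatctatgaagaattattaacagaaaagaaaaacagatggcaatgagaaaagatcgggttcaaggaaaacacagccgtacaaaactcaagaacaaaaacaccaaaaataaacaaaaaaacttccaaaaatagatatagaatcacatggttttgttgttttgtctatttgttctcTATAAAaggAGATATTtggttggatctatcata
MS2, chr3:956612-956861, plus strand: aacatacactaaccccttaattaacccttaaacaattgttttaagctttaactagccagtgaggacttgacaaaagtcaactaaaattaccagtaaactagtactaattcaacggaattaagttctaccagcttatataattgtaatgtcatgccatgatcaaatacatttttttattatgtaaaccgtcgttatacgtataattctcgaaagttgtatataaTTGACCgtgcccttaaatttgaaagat
SAHH2, chr3:8589755-8590004, minus strand: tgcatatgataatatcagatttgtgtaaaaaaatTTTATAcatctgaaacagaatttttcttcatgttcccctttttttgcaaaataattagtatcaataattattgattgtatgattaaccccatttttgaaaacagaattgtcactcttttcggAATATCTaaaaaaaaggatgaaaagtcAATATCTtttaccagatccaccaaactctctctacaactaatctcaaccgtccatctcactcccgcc
AT3G25570, chr3:9289339-9289588, minus strand: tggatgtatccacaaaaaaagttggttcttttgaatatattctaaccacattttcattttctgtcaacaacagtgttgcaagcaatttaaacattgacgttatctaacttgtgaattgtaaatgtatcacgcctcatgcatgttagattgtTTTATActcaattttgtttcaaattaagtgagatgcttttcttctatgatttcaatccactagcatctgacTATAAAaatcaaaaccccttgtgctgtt
HMA2, chr4:14725312-14725561, minus strand: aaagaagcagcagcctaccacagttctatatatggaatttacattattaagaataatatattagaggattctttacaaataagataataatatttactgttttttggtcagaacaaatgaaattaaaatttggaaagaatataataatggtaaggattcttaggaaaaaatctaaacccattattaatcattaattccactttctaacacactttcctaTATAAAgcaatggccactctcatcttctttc
ARF17, chr1:29271824-29272073, plus strand: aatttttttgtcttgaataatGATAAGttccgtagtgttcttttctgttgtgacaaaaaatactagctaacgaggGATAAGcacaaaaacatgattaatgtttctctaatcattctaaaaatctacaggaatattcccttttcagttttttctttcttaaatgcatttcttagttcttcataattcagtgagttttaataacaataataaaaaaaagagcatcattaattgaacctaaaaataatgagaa

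A forward TATA box began 33, 28 and 31 bases before the start in AT1G29140, AT3G25570 and HMA2. The windows of MS2 and ARF17 held no TATAAA. SAHH2 held the shortened evening element in 2 places, 94 and 67 bases before its start. AT1G29140 held a reverse copy of the shortened form 24 bases before its start. The W-box of MS2 began 27 bases before the start, and the 2 I-boxes of ARF17 began 229 and 175 bases before it. Over the same window, a TATA box was present in 51.3% of the 224 members and in 46.1% of 20315 tested nuclear coding genes. The shortened evening element was present in 13.8% of members and 10.12% of tested genes, and the full form was not counted. The W-box was present in 14.3% and 12.03%, and the I-box in 14.7% and 12.4%. The largest gap in percentage points among the 12 motifs searched was that of site II (TGGGCC), found in 6.25% of members and 16.2% of tested genes. The telo-box (AACCCTA) was found in 1.79% of members and 6.09% of tested genes. Both are known from promoters of genes for ribosomes and cell growth. A match describes the letters of the window and does not show that a factor binds there.

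Total counts ran from 16042169 to 18756860 per library, so a gene without counts can still have 3 counts' worth of transcript, 0.160 to 0.187 CPM depending on the library. Of 20827 genes tested with edgeR, 50.0% were called higher in stamens than in leaf and 40.0% were called lower in the gynoecium than in leaf, at an adjusted p under 0.05. The 224 members passed the filter on low counts and all 224 were called both ways, from which nothing is read because the rule used the same contrasts. Both calls together were made for 1612 genes, 7.74% of those tested, and for 1027 genes (4.93%) when libraries were scaled by their totals in place of TMM factors. The scaling matters here because library totals moved the median log2 change of all genes by 0.23 for stamens against leaf, 0.55 for gynoecium against leaf and -0.37 for stamens against gynoecium. In either direction, 87.9% of genes were called for stamens against leaf, 82.5% for gynoecium against leaf and 85.3% for stamens against gynoecium. With totals, 11582 genes were called higher and 6820 lower in stamens than in leaf, against 10419 and 7886 (37.9%) with TMM. For gynoecium against leaf the split was 11804 higher and 5731 lower with totals, against 8869 (42.6%) and 8323 with TMM. For stamens against gynoecium it was 7240 and 10962 with totals, against 9645 (46.3%) and 8128 (39.0%) with TMM. The rule's CPM uses library totals, the scaling that makes the drop in the gynoecium smaller.

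The tissue labels were set against marker lists. The summed level of 12 tapetum markers was 13706 to 13919 CPM in stamen libraries, 39.0 to 41.1 CPM in gynoecium libraries and 0 in leaf libraries. For 15 pollen markers it was 7271 to 7495 CPM in stamens, 28.9 to 30.8 CPM in gynoecia and 1.37 to 2.09 CPM in leaf. In gynoecia, DYT1, TDF1, MYB80 and MS1 of the tapetum list were at 0, as were 9 of the pollen markers. Carpel and ovule markers (12 genes) summed to 81.2 to 81.6 CPM in stamens, 819.7 to 839.5 CPM in gynoecia and 96.3 to 106 CPM in leaf, where 9 of the 12 were at 0. Mesophyll markers (12 genes) summed to 1541 to 1619 CPM in stamens, 2151 to 2186 CPM in gynoecia and 28118 to 28623 CPM in leaf. Phloem and companion cell markers (14 genes) were lowest in gynoecia and summed to 729.5 to 751 CPM in stamens, 124 to 128 CPM in gynoecia and 1350.0 to 1362 CPM in leaf, and NAC045, NAC086 and SULTR1;3 were at 0 in both gynoecia and leaf. Guard cell markers (14 genes, KAT1 of the set among them) were at 500.3 to 513 CPM in stamens, 2555 to 2617 CPM in gynoecia and 1979 to 2023 CPM in leaf. Petal and sepal markers (14 genes) summed to 1487 to 1558 CPM in stamens and 629 to 657 CPM in gynoecia. In leaf they summed to 78.5 to 83.4 CPM. All 14 had counts in gynoecia, and whether other floral organs were included was not tested. Epidermis markers (7 genes) summed to 1772 to 1835 CPM in stamens, 3779 to 3856 CPM in gynoecia and 1149 to 1170 CPM in leaf. Trichome markers (12 genes) summed to 5.48 to 6.24, 8.46 to 10.8 and 49.0 to 51.8 CPM in the same order. A sum can differ from most of its genes. Of 10 guard cell markers tested, 3 were called higher and 6 lower in gynoecia than in leaf, against the direction of the sum. Of the 12 carpel and ovule markers, 9 were called higher and 1 lower in stamens than in leaf, although their sum was lower there. The part of these cell types in the members' levels was not tested. In bulk tissue, fewer cells of a type and less RNA per cell cannot be told apart.

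The median member had 44.0 CPM in stamens, 1.13 CPM in gynoecia and 6.29 CPM in leaf. Per length, the median was 21.985 FPKM in stamens, 0.559 FPKM in gynoecia and 3.499 FPKM in leaf, while the median of all genes tested was 8.09, 9.05 and 5.52 FPKM in the same tissues. Together the members took 2.25% ± 0.00252 of the counts in stamens, 0.0828% ± 0.000107 in gynoecia and 0.348% ± 0.00277 in leaf (SD, n = 3 libraries each, as for every ± that follows). The median ratio of stamens to leaf was 5.91 (interquartile range 3.10 to 12.8), with 144 members at 4-fold or more, 89 at 8-fold or more and 44 at 16-fold or more. On the other side, the median member was 6.45-fold below leaf in gynoecia (interquartile range 3.03 to 14.9), with 143, 96 and 52 members at least 4-fold, 8-fold and 16-fold below. The gap between stamens and gynoecia was a median of 50.7-fold (interquartile range 14.6 to 145). These medians take 67 members without a gynoecium count at the value of 3 counts per library, and over the other 157 members the medians were 4.63, 3.92 and 23.3.

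**Figure D1:**
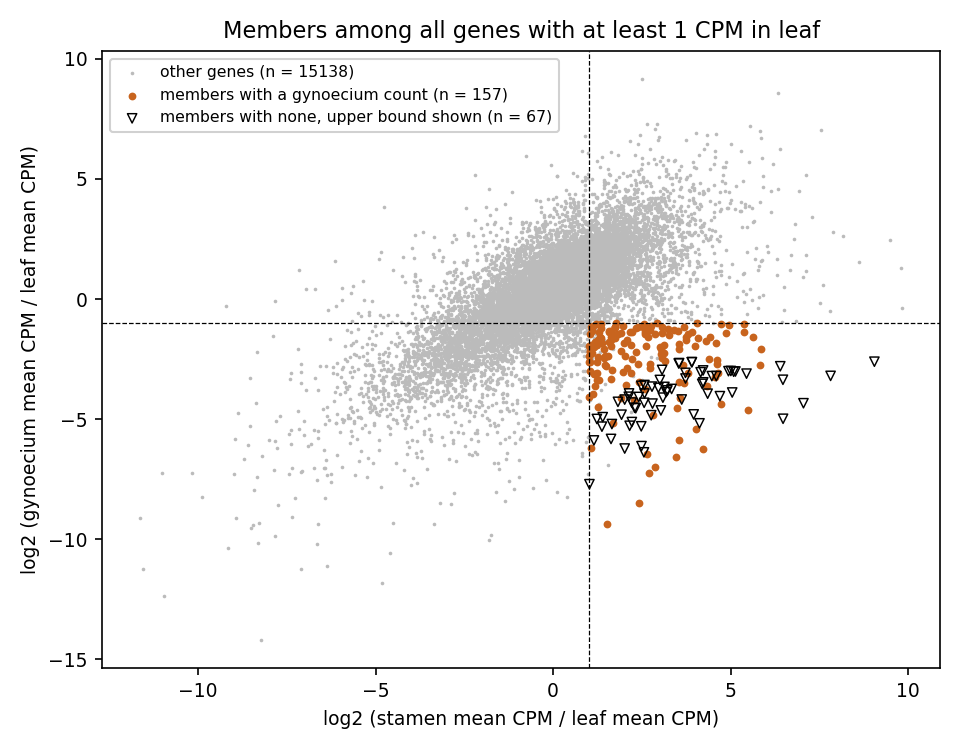
Each point is a gene with at least 1 CPM in leaf, placed by the log2 ratio of its stamen to its leaf mean CPM (x axis) and of its gynoecium to its leaf mean CPM (y axis). Grey points are 15138 other genes, filled points 157 members with a gynoecium count and open triangles 67 members without one, drawn at their upper bound; dashed lines are the 2-fold limits of the rule, and members reach a ratio of 528 on the x axis.

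Replicate libraries lay close together, but no pair agreed within sampling noise: the chi-square of counts between 2 libraries of a tissue was 1.78 to 3.17 per degree of freedom over all loci with at least 20 counts in the pair. The median coefficient of variation of a member was 3.94% in stamens, 14.4% in gynoecia, where counts are lowest, and 9.73% in leaf. The next counts rest on the contrasts of the rule, so nothing is read from them. The share of all genes so separated was not counted. The same holds where tissues of a single member are said below not to overlap. In all 224 members every stamen library was above every leaf library, and in 223 every gynoecium library was below every leaf library. The exception was AT1G28100, an uncharacterized protein gene that shares 27.6% of its exon bases with another locus, with 15.9, 15.98 and 15.4 CPM in the stamen libraries, 0.320, 0.232 and 0.719 CPM in the gynoecium libraries and 1.75, 1.16 and 0.523 CPM in the leaf libraries. The rule's limits ran through genes of similar values. Just inside the stamen limit were AT1G13990 and UGT73B2 at 2.03 times leaf, and just outside it were the receptor gene BRL3 at 1.98 and the cold-regulated gene COR15A at 1.97. At the gynoecium limit, SCPL51 (0.499 of leaf) and ARF17 (0.496) were inside, and AT1G71140 (0.5004) and GLP10 (0.504) were outside. AT1G29140 was kept with 1.01 CPM in leaf, while the aquaporin gene NIP7;1 (0.990 CPM) and CAD3 (0.929 CPM) were not. The limit on gynoecia alone kept out 3177 loci that met the other conditions, that on stamens 1253, the leaf minimum 547 and the stamen minimum 64. The opposite set, built by the same rule with stamens and gynoecium exchanged, holds 169 genes and shares 0 with this one.

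The most abundant members per length in stamens were enzymes of unassigned role, a peptidase and a pollen protein. AT3G51000, an alpha/beta-hydrolase, had 1392, 1375 and 1425 CPM in the stamen libraries, 49.1, 52.2 and 45.0 CPM in the gynoecium libraries and 102, 109.9 and 111 CPM in the leaf libraries. The serine carboxypeptidase-like gene scpl48 (AT3G45010) had 1437, 1489.7 and 1499 CPM in the stamen libraries, 6.34, 6.96 and 7.46 CPM in the gynoecium libraries and 61.8, 54.9 and 58.9 CPM in the leaf libraries. Per length these were 1053 and 793 FPKM in stamens, the highest levels of the set. AT2G41040, a predicted S-adenosylmethionine-dependent methyltransferase, had 1000.2, 976 and 996 CPM in the stamen libraries, 17.4, 19.3 and 17.97 CPM in the gynoecium libraries and 37.7, 37.1 and 37.2 CPM in the leaf libraries. AT1G29140, of the Ole e 1 family of pollen allergens and extensins, had 554, 513 and 539.8 CPM in the stamen libraries, no count in any gynoecium library and 1.12, 1.05 and 0.872 CPM in the leaf libraries. Stamen libraries were far above the others in all 4 genes, and none of the tissues overlapped. AT1G29140 had the largest ratio of stamens to leaf, 528-fold, but its gynoecium level is only known to be at least 6.08-fold below leaf, because its leaf level was itself close to the detection limit. The next largest ratios to leaf were those of ABCG31 (225-fold), PRP2 (132-fold), AT2G03200 (88.9-fold) and GDH3 (88.7-fold). For these, and for AT1G29140, no gynoecium library had a count.

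Other members were a substantial leaf transcript. In leaf, 83 members reached 10 CPM and 34 stayed under 2 CPM. UGT73B2 (AT4G34135), a glucosyltransferase of flavonols, had 67.6, 74.0 and 70.0 CPM in the stamen libraries, no count in any gynoecium library and 35.5, 35.2 and 33.5 CPM in the leaf libraries. It sat barely inside the stamen limit at 2.03-fold above leaf, and it was at least 208-fold below leaf in gynoecia. RR16 (AT2G40670), a type-A response regulator that dampens cytokinin signalling, had 183, 180.3 and 177 CPM in the stamen libraries, 1.17, 1.39 and 0.995 CPM in the gynoecium libraries and 86.3, 84.1 and 88.3 CPM in the leaf libraries. Its levels were 2.09-fold above leaf in stamens and 72.7-fold below leaf in gynoecia, so the difference in gynoecia was the larger. The other members with at least 10 CPM in leaf and no gynoecium count were AT3G23870 (a NIPA magnesium transporter), AT3G25570 and AT2G45220 (of the pectin methylesterase inhibitor superfamily).

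**Figure D2:**
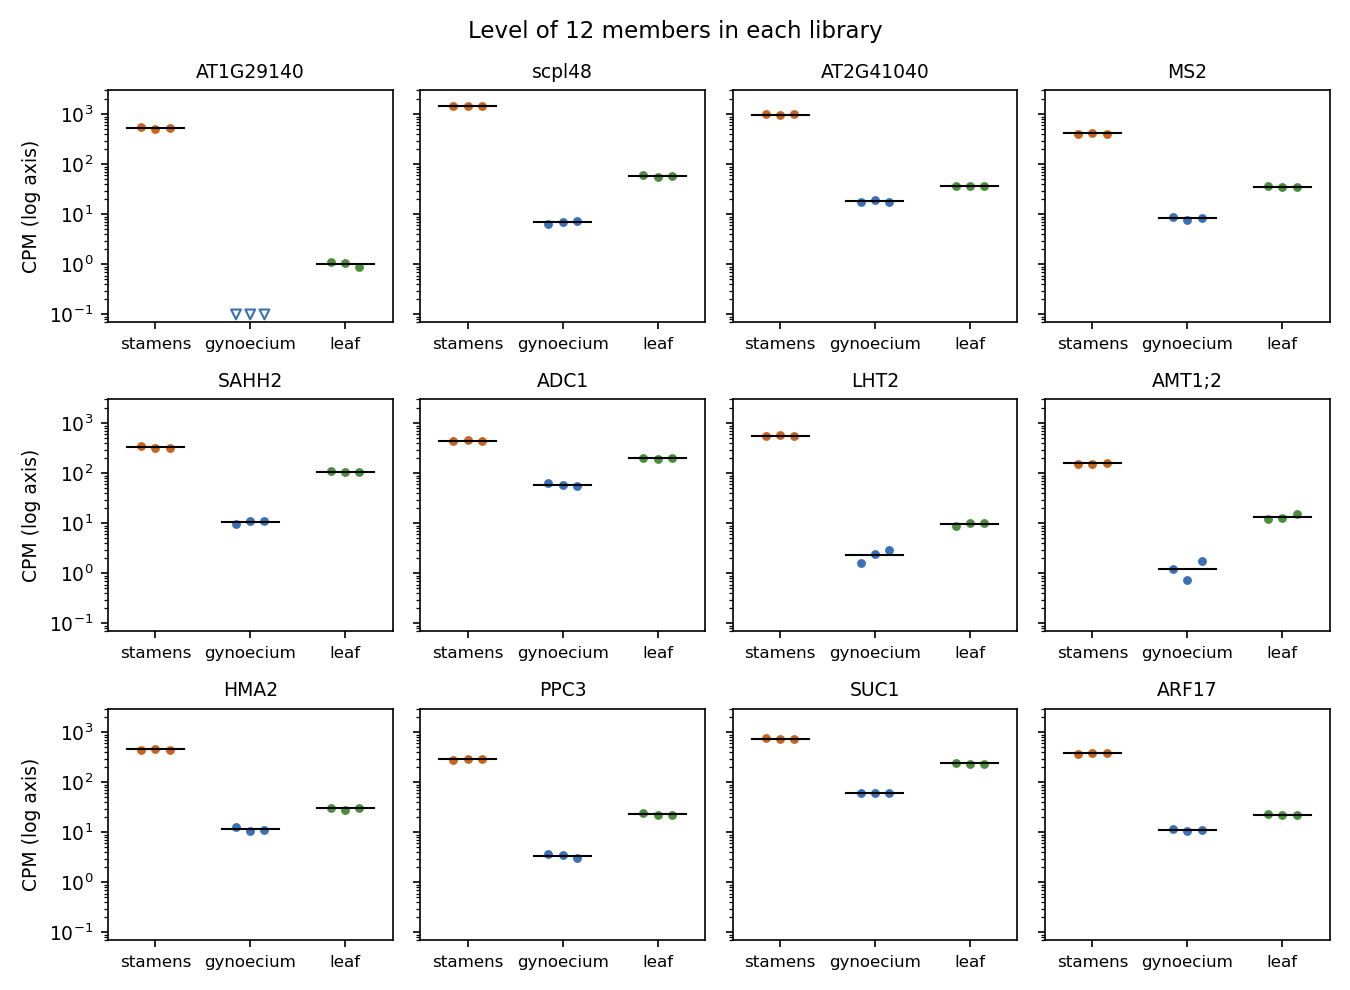
Level in CPM (log axis) of 12 members in each of 9 libraries; points are libraries, horizontal lines are tissue means and open triangles at the lower edge are libraries without a count. In every panel the 3 stamen points lie above the 3 leaf points and the 3 gynoecium points below them.

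The methionine cycle and polyamine synthesis were represented by 6 members. The cycle makes methionine, turns it into the methyl donor S-adenosylmethionine and recycles what is left after methyl transfer, and polyamines are built from decarboxylated S-adenosylmethionine and from arginine. MS2 (AT3G03780), a methionine synthase and not the tapetum gene of the same symbol, had 412, 430.5 and 411 CPM in the stamen libraries, 9.06, 7.88 and 8.29 CPM in the gynoecium libraries and 37.3, 34.9 and 35.6 CPM in the leaf libraries. SAHH2 (AT3G23810), which cleaves S-adenosylhomocysteine, had 349.5, 320.1 and 324 CPM in the stamen libraries, 9.54, 11.3 and 11.2 CPM in the gynoecium libraries and 111, 107 and 105 CPM in the leaf libraries. HMT3 (AT3G22740), which makes methionine from homocysteine and S-methylmethionine, had 56.3, 55.5 and 55.1 CPM in the stamen libraries, 0.586, 0.0580 and 0.111 CPM in the gynoecium libraries and 2.43, 2.85 and 1.80 CPM in the leaf libraries. None of the tissues overlapped in any of these 3 genes. MS2 was 11.6-fold above leaf in stamens and 4.27-fold below it in gynoecia, SAHH2 3.07-fold above and 10.095-fold below, and HMT3 23.6-fold above and 9.38-fold below. The gynoecium level of HMT3 rests on 14 counts, 11 of them in replicate 1, and without that library it was 0.0357 of leaf in place of 0.107.

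On the polyamine branch, ADC1 (AT2G16500), an arginine decarboxylase that starts putrescine synthesis, had 443, 473 and 442 CPM in the stamen libraries, 62.9, 58.0 and 56.0 CPM in the gynoecium libraries and 204, 194 and 205 CPM in the leaf libraries. AT5G15950 and AT3G25570, S-adenosylmethionine decarboxylases, supply the aminopropyl groups of spermidine. AT5G15950 had 72.9, 73.0 and 72.0 CPM in the stamen libraries, 4.798, 3.77 and 4.64 CPM in the gynoecium libraries and 11.6, 12.03 and 13.0 CPM in the leaf libraries. AT3G25570 had 64.2, 65.4 and 65.3 CPM in the stamen libraries, no count in any gynoecium library and 11.7, 10.6 and 12.4 CPM in the leaf libraries. The pair reached almost the same stamen and leaf levels, but AT3G25570 was at least 69.5-fold below leaf in gynoecia and AT5G15950 2.77-fold. Summed over the 6 members, the level was 1395 ± 23.7 CPM in stamens, 82.7 ± 3.59 CPM in gynoecia and 371 ± 8.64 CPM in leaf (SD, n = 3 libraries each).

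Relatives of these genes, outside the set, had transcript in gynoecia. ATMS1, another methionine synthase, stood at 736 ± 9.43 CPM in stamens, 409 ± 3.58 CPM in gynoecia and 559 ± 24.8 CPM in leaf. It was called higher in stamens than in leaf (log2 change 0.16, edgeR adjusted p = 5.58e-06) and lower in gynoecia than in leaf (-1.09, adjusted p = 1.19e-38), the same directions as MS2 at a smaller size. HOG1, the other S-adenosylhomocysteine hydrolase, stood at 1239.6 ± 42.3 CPM in stamens, 1321 ± 43.5 CPM in gynoecia and 837 ± 33.4 CPM in leaf. It was called higher in stamens than in leaf (log2 change 0.33, edgeR adjusted p = 4.78e-14) and was not called between gynoecium and leaf (adjusted p = 0.741), but with library totals it was called higher in gynoecia. HMT2 and ADC2 were called higher in both floral organs: HMT2 stood at 88.4 ± 3.32 CPM in stamens, 144 ± 1.54 CPM in gynoecia and 30.6 ± 1.57 CPM in leaf, and ADC2 at 419 ± 10.3 CPM in stamens, 525 ± 9.29 CPM in gynoecia and 240.4 ± 6.76 CPM in leaf. The S-adenosylmethionine decarboxylase gene SAMDC had 3058 ± 6.24 CPM in stamens, 862 ± 9.37 CPM in gynoecia and 1038 ± 30.2 CPM in leaf and followed the members' directions (log2 change 1.32, edgeR adjusted p = 2.07e-45 against leaf in stamens, and -0.91, adjusted p = 1.79e-36 in gynoecia). BUD2, of the same family, was highest in gynoecia, at 12.04 ± 0.542 CPM in stamens, 56.1 ± 2.29 CPM in gynoecia and 2.39 ± 0.242 CPM in leaf.

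The share of a family's summed FPKM that its members took was not the same across tissues. The rule picked members high in stamens and low in gynoecia, so the direction of these shares, here and below, is largely fixed by it. For methionine synthases the share of MS2 was 37.0% ± 0.723 in stamens, 2.14% ± 0.148 in gynoecia and 6.42% ± 0.126 in leaf. SAHH2 took 23.5% ± 1.39 in stamens, 0.923% ± 0.104 in gynoecia and 12.9% ± 0.485 in leaf of the S-adenosylhomocysteine hydrolases. ADC1 took 52.8% ± 0.375 in stamens, 10.4% ± 0.587 in gynoecia and 46.4% ± 0.269 in leaf of the arginine decarboxylases, so that stamens and leaf had a near even mix of the 2 genes where gynoecia had mostly ADC2. The 4 S-adenosylmethionine synthetases and 3 spermidine synthases, other steps of these pathways, hold no member.

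Carriers of nitrogen compounds formed the next group, with 10 members. LHT2 (AT1G24400), a high-affinity amino acid carrier of the plasma membrane, had 567, 573 and 566 CPM in the stamen libraries, 1.60, 2.49 and 2.88 CPM in the gynoecium libraries and 8.91, 10.3 and 10.3 CPM in the leaf libraries. The ammonium transporter gene AMT1;2 (AT1G64780) had 154, 157 and 162 CPM in the stamen libraries, 1.23, 0.754 and 1.77 CPM in the gynoecium libraries and 12.4, 12.8 and 15.2 CPM in the leaf libraries. NRT1:2 (AT1G69850), a low-affinity nitrate transporter that can also carry abscisic acid, had 254, 254 and 266 CPM in the stamen libraries, 26.0, 23.1 and 27.1 CPM in the gynoecium libraries and 80.8, 79.0 and 72.3 CPM in the leaf libraries. Each tissue was clear of the others in the 3 genes. LHT2 was 57.6-fold above leaf in stamens and 4.25-fold below it in gynoecia, AMT1;2 11.7-fold above and 10.8-fold below, and NRT1:2 3.33-fold above and 3.04-fold below. NRT1.5 (AT1G32450), which loads nitrate into the root xylem, had 34.0 CPM in stamens, 0 counts in gynoecia and 1.54 CPM in leaf. The amino acid carriers AT5G41800, AT2G41190 and AT3G54830 stood at 206, 33.4 and 13.9 CPM in stamens, 3.32, 1.32 and 0.259 CPM in gynoecia and 12.9, 13.6 and 5.75 CPM in leaf. UMAMIT11 (AT2G40900), of a family of amino acid exporters, was 21.2-fold above leaf in stamens. The peptide carriers OPT1 and PTR1 were 7.30-fold and 2.04-fold above leaf in stamens and 2.77-fold and 4.45-fold below it in gynoecia. AMT1;2 took 66.2% ± 0.132 in stamens, 1.53% ± 0.688 in gynoecia and 9.10% ± 0.824 in leaf of the summed FPKM of 6 ammonium transporters. Of the 6, AMT1;1 and AMT1;5 had no count in any library and no FPKM value, so the sum rests on the others. Whether the deposited counts can measure these 2 loci was not tested. AMT2, the most abundant in leaf of those with counts, was called lower in both floral organs and stood at 15.1 ± 0.374 CPM in stamens, 72.4 ± 3.62 CPM in gynoecia and 120.2 ± 1.89 CPM in leaf.

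Sugar and central carbon metabolism held 13 members, among them a sucrose carrier, sucrose synthesis enzymes and enzymes around phosphoenolpyruvate. SUC1 (AT1G71880), the sucrose-proton symporter known from pollen, had 765, 752 and 722 CPM in the stamen libraries, 62.5, 60.4 and 60.0 CPM in the gynoecium libraries and 244, 234 and 238 CPM in the leaf libraries and the highest leaf level of any member in CPM. SPP1 (AT1G51420) and SPS2F (AT5G11110) carry out the closing steps of sucrose synthesis. SPP1 had 39.7, 42.6 and 40.0 CPM in the stamen libraries, no count in any gynoecium library and 1.496, 1.22 and 1.28 CPM in the leaf libraries, and SPS2F averaged 68.8 ± 3.26 CPM in stamens, 7.03 ± 0.372 CPM in gynoecia and 21.0 ± 1.77 CPM in leaf. Both steps also ran through relatives that are no members: SPS4F (ATSPS4F in the annotation) was at 129.7 ± 1.96 CPM in stamens, 0 counts in gynoecia and 87.0 ± 1.22 CPM in leaf, SPS1F at 216 ± 0.828 CPM in stamens, 103 ± 1.23 CPM in gynoecia and 364 ± 9.30 CPM in leaf and SPP2 at 75.7 ± 2.25 CPM in stamens, 34.5 ± 0.640 CPM in gynoecia and 45.0 ± 2.41 CPM in leaf. ATSPS4F met both directions in the edgeR test (log2 change 0.34, adjusted p = 3.00e-10 in stamens against leaf, with no gynoecium count) but stayed below 2-fold in stamens.

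PPC3 (AT3G14940), a phosphoenolpyruvate carboxylase, had 285, 299 and 299.7 CPM in the stamen libraries, 3.68, 3.59 and 3.04 CPM in the gynoecium libraries and 24.8, 21.97 and 22.6 CPM in the leaf libraries. PCK2 (AT5G65690), a phosphoenolpyruvate carboxykinase, which runs from oxaloacetate to phosphoenolpyruvate, had 100.3, 98.0 and 95.9 CPM in the stamen libraries, 0.213, 0 and 0.0553 CPM in the gynoecium libraries and 2.74, 1.51 and 2.32 CPM in the leaf libraries. GDH3 (AT3G03910), a glutamate dehydrogenase subunit, had 145, 157 and 152 CPM in the stamen libraries, no count in any gynoecium library and 1.81, 1.39 and 1.92 CPM in the leaf libraries. Over the 3 gynoecium libraries PPC3 had 186 counts, PCK2 had 5 and GDH3 had none. The members' shares of their families were 41.9% ± 0.846 in stamens, 0.899% ± 0.0906 in gynoecia and 3.81% ± 0.140 in leaf for PPC3, 46.1% ± 0.415 in stamens, 0.0445% ± 0.0545 in gynoecia and 2.74% ± 0.770 in leaf for PCK2 and 30.1% ± 0.790 in stamens, 0% in gynoecia and 1.60% ± 0.261 in leaf for GDH3. Relatives outside the set went several ways. PCK1 stood at 107 ± 0.915 CPM in stamens, 187 ± 2.63 CPM in gynoecia and 72.7 ± 0.762 CPM in leaf, and GDH2 at 412 ± 5.24 CPM in stamens, 367 ± 10.4 CPM in gynoecia and 55.9 ± 1.13 CPM in leaf, both called higher than leaf in both floral organs (edgeR adjusted p from 2.70e-55 to 3.56e-10). PPC2 stood at 222 CPM in stamens, 228 CPM in gynoecia and 449 CPM in leaf and was called lower in both (log2 change -1.25 in stamens and -1.63 in gynoecia, edgeR adjusted p = 4.16e-41 and 3.43e-47). PPC1 (129 CPM in stamens, 141 CPM in gynoecia and 121 CPM in leaf) and GDH1 (35.6 CPM in stamens, 99.3 CPM in gynoecia and 72.5 CPM in leaf) were also called lower in both, but with library totals PPC1 was called higher in both organs and GDH1 higher in gynoecia. PPC4 was counted in stamens alone, at 43.2 CPM. BCA3 (AT1G23730), a carbonic anhydrase, was 56.9-fold above leaf in stamens, at 84.4 CPM in stamens, 0.222 CPM in gynoecia and 1.48 CPM in leaf. Its relatives CA1 and CA2, the abundant carbonic anhydrases of leaves, were lower in both floral organs: CA1 stood at 12.3 ± 0.386 CPM in stamens, 23.5 ± 0.604 CPM in gynoecia and 3969 ± 94.3 CPM in leaf, and BCA3 made up 51.7% of the family's FPKM in stamens and 0.0495% in leaf. AT4G33070, a pyruvate decarboxylase, an enzyme of fermentation, had 52.0 CPM in stamens, 0 counts in gynoecia and 2.55 CPM in leaf. The remaining members of the group were 8.32-fold (BCAT-2), 11.8-fold (DIN9, a mannose-6-phosphate isomerase), 5.91-fold (UGE2, an epimerase of UDP-sugars), 3.23-fold (TPPF, a trehalose-6-phosphate phosphatase) and 2.59-fold (AMY1, an alpha-amylase) above leaf in stamens.

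Metal handling was represented by 8 members. HMA2 (AT4G30110), a zinc-exporting pump that loads the xylem, had 448, 464 and 453 CPM in the stamen libraries, 13.1, 10.9 and 11.2 CPM in the gynoecium libraries and 31.3, 28.4 and 30.9 CPM in the leaf libraries. The copper chaperone gene CCH (AT3G56240), known to increase in ageing leaves, had 213, 186 and 202 CPM in the stamen libraries, 8.16, 7.07 and 6.69 CPM in the gynoecium libraries and 85.7, 89.9 and 90.8 CPM in the leaf libraries. FRO3 (AT1G23020), a mitochondrial ferric reductase, had 83.6, 90.6 and 86.7 CPM in the stamen libraries, 9.38, 10.3 and 8.35 CPM in the gynoecium libraries and 28.7, 24.3 and 26.4 CPM in the leaf libraries. All 3 genes had tissues that did not overlap, and CCH had the smallest ratio of stamens to leaf among the 8, 2.26-fold, with 12.2-fold less in gynoecia than in leaf. AT1G16310 and AT1G79520, cation efflux proteins, stood 24.6-fold and 8.63-fold above leaf in stamens. AT1G21140, of the vacuolar iron transporter family, stood 12.8-fold above leaf in stamens, and the copper pump gene HMA5 4.19-fold. The root ferric reductase gene FRO1 (AT1G01590) had no gynoecium count and was 5.01-fold above leaf in stamens. The zinc pump HMA4, partner of HMA2 in xylem loading, is not a member: it stood at 1851 ± 31.3 CPM in stamens, 47.3 ± 2.31 CPM in gynoecia and 13.4 ± 0.315 CPM in leaf, higher than leaf in both floral organs (log2 change 6.88, edgeR adjusted p = 2.03e-73 in stamens, and 1.18, adjusted p = 1.23e-26 in gynoecia). Among 8 ferric reductases the members FRO1 and FRO3 took 54.5% ± 0.912 in stamens, 8.41% ± 0.912 in gynoecia and 3.97% ± 0.324 in leaf, and FRO6, FRO7 and FRO8, the reductases of green tissue, were called lower in both floral organs than in leaf. FRO5, of the same 8, had no count in any library and no FPKM value.

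Ion channels and exchangers were 7 members with modest ratios in stamens. KAT1 (AT5G46240), the inward potassium channel of guard cells, had 50.8, 50.3 and 54.8 CPM in the stamen libraries, 2.51, 1.91 and 3.59 CPM in the gynoecium libraries and 17.9, 18.5 and 19.1 CPM in the leaf libraries. BOR1 (AT2G47160), a borate exporter that loads the xylem, had 93.3, 96.8 and 93.9 CPM in the stamen libraries, 15.4, 15.3 and 17.9 CPM in the gynoecium libraries and 40.0, 36.9 and 35.0 CPM in the leaf libraries. The group's median was 2.81-fold above leaf in stamens and 4.57-fold below leaf in gynoecia. KUP9, a potassium carrier, and MSL5, a mechanosensitive channel, were 2.04-fold and 2.56-fold above leaf in stamens. CHX17 and CHX20, cation-proton exchangers, were at 15.1 and 11.2 CPM in stamens, and CHX17 had no gynoecium count.

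Regulators of transcription numbered 16, with 3 more in the secondary wall group. ARF17 (AT1G77850), an auxin response factor needed for the pollen wall and a target of microRNA miR160, had 369, 383 and 387 CPM in the stamen libraries, 11.9, 10.8 and 11.2 CPM in the gynoecium libraries and 23.1, 22.6 and 22.6 CPM in the leaf libraries. It was the most abundant regulator of the set per length in stamens (128 FPKM). It met the gynoecium limit narrowly, 2.01-fold below leaf. Its relatives ARF10 and ARF16 differed from it: ARF10 stood at 78.0 ± 2.15 CPM in stamens, 19.6 ± 1.34 CPM in gynoecia and 4.60 ± 0.902 CPM in leaf and was called higher than leaf in both floral organs, and ARF16 stood at 23.4 ± 2.22 CPM in stamens, 45.4 ± 1.80 CPM in gynoecia and 44.8 ± 1.77 CPM in leaf and was called lower in both, although with library totals its gynoecium difference was not called. WRKY42 (AT4G04450), a regulator of phosphate homeostasis, had 127, 127 and 127 CPM in the stamen libraries, 2.13, 1.04 and 1.66 CPM in the gynoecium libraries and 3.99, 4.07 and 4.88 CPM in the leaf libraries. NAC047 (AT3G04070) had 104, 108 and 101 CPM in the stamen libraries, no count in any gynoecium library and 5.73, 5.93 and 6.34 CPM in the leaf libraries.

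The NAC family, plant-specific regulators with several members known from ageing leaves, had 6 members in the set, 2.68% of it, while 0.335% of tested coding genes carry that description. Beside NAC047 these were NAC100 (71.0 CPM in stamens, 0 counts in gynoecia and 2.74 CPM in leaf), NAC2 (34.8 CPM in stamens, 0.293 CPM in gynoecia and 2.501 CPM in leaf), NAC6 (24.2 CPM in stamens, 0.935 CPM in gynoecia and 5.19 CPM in leaf), ANAC087 (21.6 CPM in stamens, 2.81 CPM in gynoecia and 8.51 CPM in leaf) and NAC016 (10.6 CPM in stamens, 0.929 CPM in gynoecia and 3.95 CPM in leaf). NAC6, the locus AT5G39610 also known as ORE1, promotes leaf senescence. These 5 ranged from 2.53-fold to 25.9-fold above leaf in stamens. LBD10 (AT2G23660), a LOB-domain regulator known from pollen, had 45.7, 43.7 and 48.1 CPM in the stamen libraries, no count in any gynoecium library and 1.56, 1.39 and 1.104 CPM in the leaf libraries. The other regulators, MYB84, GT2, bHLH34, ZAT6, AT3G20640, AT4G00940 and AT5G04390, reached 12.3 CPM (AT5G04390) to 76.9 CPM (bHLH34) in stamens and spanned 2.03-fold to 11.7-fold above leaf in stamens.

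Secondary wall genes were 5 members, all low in leaf. KNAT7 (AT1G62990), AtMYB103 (AT1G63910) and MYB63 (AT1G79180) are regulators of secondary wall or lignin synthesis. KNAT7 had 45.9, 48.2 and 47.4 CPM in the stamen libraries, no count in any gynoecium library and 1.18, 1.28 and 1.57 CPM in the leaf libraries. AtMYB103 had 21.6, 23.1 and 21.7 CPM in the stamen libraries, no count in any gynoecium library and 2.31, 2.73 and 2.27 CPM in the leaf libraries. MYB63 had 15.1, 13.3 and 14.6 CPM in the stamen libraries, no count in any gynoecium library and 2.06, 2.27 and 1.92 CPM in the leaf libraries. Each was clear of leaf in every stamen library, and none had a gynoecium count, though with 1 to 3 CPM in leaf the difference to gynoecia is only bounded, being at least 8.07-fold, at least 14.6-fold and at least 12.5-fold. IRX1 (AT4G18780), the secondary wall cellulose synthase CESA8, had 44.8, 47.98 and 40.4 CPM in the stamen libraries, 0.373, 0 and 0.276 CPM in the gynoecium libraries and 3.80, 3.14 and 4.24 CPM in the leaf libraries. Without replicate 1 its gynoecium level was 0.0371 of leaf, against 0.0581 with it. Its partners in the cellulose synthase complex are no members: CESA4 stood at 191 ± 4.47 CPM in stamens, 4.28 ± 0.442 CPM in gynoecia and 1.86 ± 0.411 CPM in leaf and was called higher than leaf in gynoecia as well (log2 change 0.55, edgeR adjusted p = 0.00278), and IRX3 (CESA7) stood at 75.8 ± 3.94 CPM in stamens, 4.57 ± 0.726 CPM in gynoecia and 3.99 ± 1.002 CPM in leaf (log2 change -0.44, adjusted p = 0.00866, not called with library totals). Xylem markers, 11 genes with IRX1 among them, summed to 619.5 to 630.3 CPM in stamens, 25.6 to 30.3 CPM in gynoecia and 32.04 to 36.8 CPM in leaf. The part of xylem in these levels was not tested.

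Pollen and cytoskeleton genes (9 members) included PRP2 (AT2G21140), a proline-rich cell wall protein, with 440.2, 439.8 and 454 CPM in the stamen libraries, no count in any gynoecium library and 3.74, 2.85 and 3.49 CPM in the leaf libraries. ACT4 (AT5G59370), an actin of pollen, had 97.4, 104 and 90.7 CPM in the stamen libraries, no count in any gynoecium library and 1.43, 1.104 and 0.930 CPM in the leaf libraries. FH3 (AT4G15200), a formin that nucleates actin in pollen, had 29.6, 30.5 and 27.3 CPM in the stamen libraries, no count in any gynoecium library and 9.23, 8.08 and 10.9 CPM in the leaf libraries. These 3 genes had no gynoecium count, and of the 3 the leaf level of FH3 was the highest, so its bound was the largest, at least 56.5-fold below leaf. ROPGEF11, an activator of ROP switches, was 9.31-fold above leaf in stamens, AGP41, an arabinogalactan protein, 5.20-fold, PIP5K4, a lipid kinase of pollen tubes, 2.16-fold and FH8, another formin, 2.205-fold. Lipid and barrier genes (5 members) were led by ABCG31 (AT2G29940), a transporter that loads sterol glycosides onto the pollen coat, with 342, 342 and 344 CPM in the stamen libraries, no count in any gynoecium library and 1.496, 1.98 and 1.104 CPM in the leaf libraries. GPAT5, an acyltransferase of suberin synthesis, had 42.5 CPM in stamens, 0 counts in gynoecia and 1.32 CPM in leaf. TKPR2, a reductase of sporopollenin synthesis, had 69.3 CPM in stamens, 3.14 CPM in gynoecia and 7.43 CPM in leaf. PES1, an acyltransferase that disposes of phytol and fatty acids as chlorophyll breaks down, had 129.9 CPM in stamens, 5.44 CPM in gynoecia and 21.0 CPM in leaf. KCR2, a beta-ketoacyl reductase, was 4.63-fold above leaf in stamens. Proteases (6 members) were 4 serine carboxypeptidase-like proteins and 2 aspartyl proteases, of which AT2G03200 had 464, 472 and 467 CPM in the stamen libraries, no count in any gynoecium library and 5.61, 4.88 and 5.29 CPM in the leaf libraries.

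**Figure D3:**
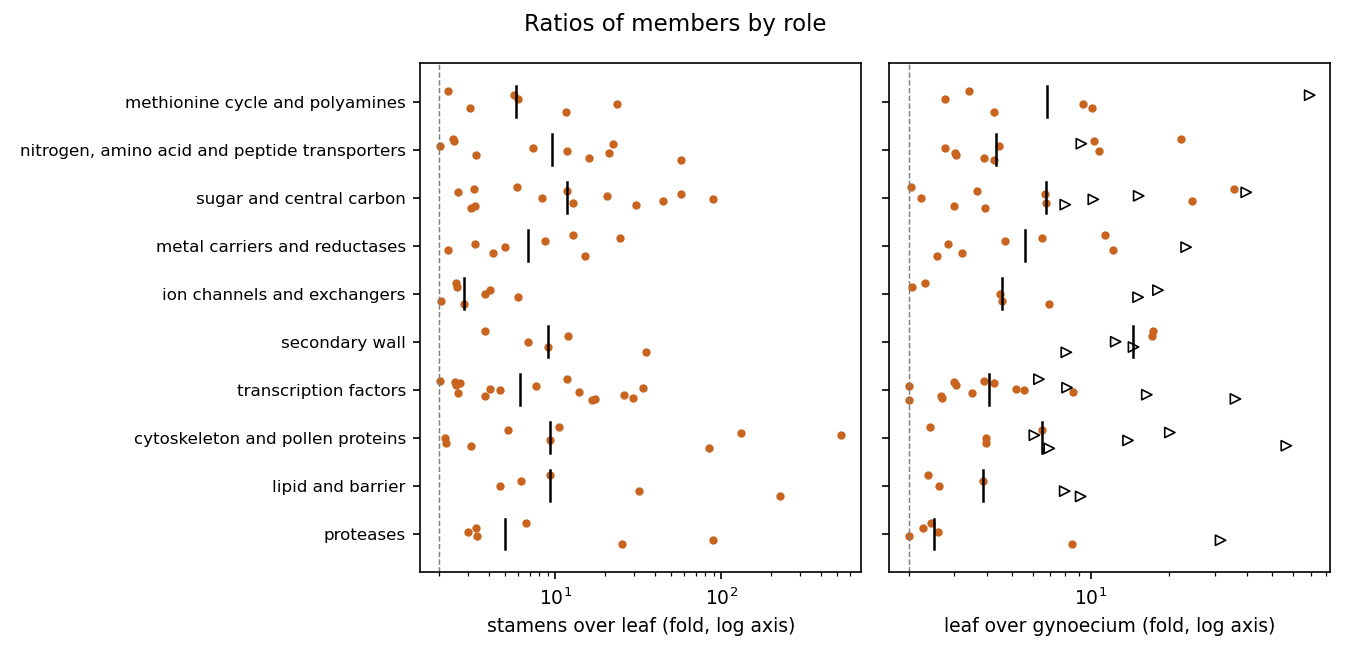
Ratio of each member to leaf by role, for 85 members in 10 groups: stamen mean over leaf mean (left) and leaf mean over gynoecium mean (right), both fold on log axes, with medians as black bars and the 2-fold limit dashed. Open triangles are members without a gynoecium count, drawn at their lower bound; the right panel runs with leaf on top of the ratio, and its medians take these bounds as values. Medians on the left run from 2.81 for ion channels and exchangers to 11.8 for sugar and central carbon.

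The 10 groups were formed after the values were seen and hold 85 members, and 139 members are in none. Their medians were 5.78-fold above leaf in stamens and 6.83-fold below leaf in gynoecia for the methionine cycle and polyamines, 9.50-fold above leaf in stamens and 4.35-fold below leaf in gynoecia for nitrogen carriers and 11.8-fold above leaf in stamens and 6.73-fold below leaf in gynoecia for sugar and central carbon. In gynoecia the median protease was 2.51-fold below leaf. The median secondary wall gene was at least 14.6-fold below leaf, a bound because 3 of the 5 had no gynoecium count. Among members outside the groups, AT2G16750, a predicted kinase, had 615 CPM in stamens, 5.74 CPM in gynoecia and 14.9 CPM in leaf, GLYI7, of the glyoxalase family, had 303 CPM in stamens, 2.06 CPM in gynoecia and 6.08 CPM in leaf, and XTH24, a xyloglucan-modifying enzyme, had 117 CPM in stamens, 1.47 CPM in gynoecia and 19.6 CPM in leaf. DML3 (AT4G34060), a DNA demethylase, had 50.7 CPM in stamens, 1.89 CPM in gynoecia and 5.26 CPM in leaf, and the cell cycle inhibitor gene KRP6 had 11.3 CPM in stamens, 2.40 CPM in gynoecia and 5.40 CPM in leaf. DML3 took 24.1% ± 1.48 in stamens, 1.06% ± 0.256 in gynoecia and 5.87% ± 1.43 in leaf of the summed FPKM of 4 DNA demethylases. Of the others, DML1 and DML2 were called higher than leaf in both floral organs, and DME was called lower in both (log2 change -0.38 in stamens, edgeR adjusted p = 9.79e-11, and -0.60 in gynoecia, adjusted p = 4.10e-18, not called in gynoecia with library totals).

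**Figure D4:**
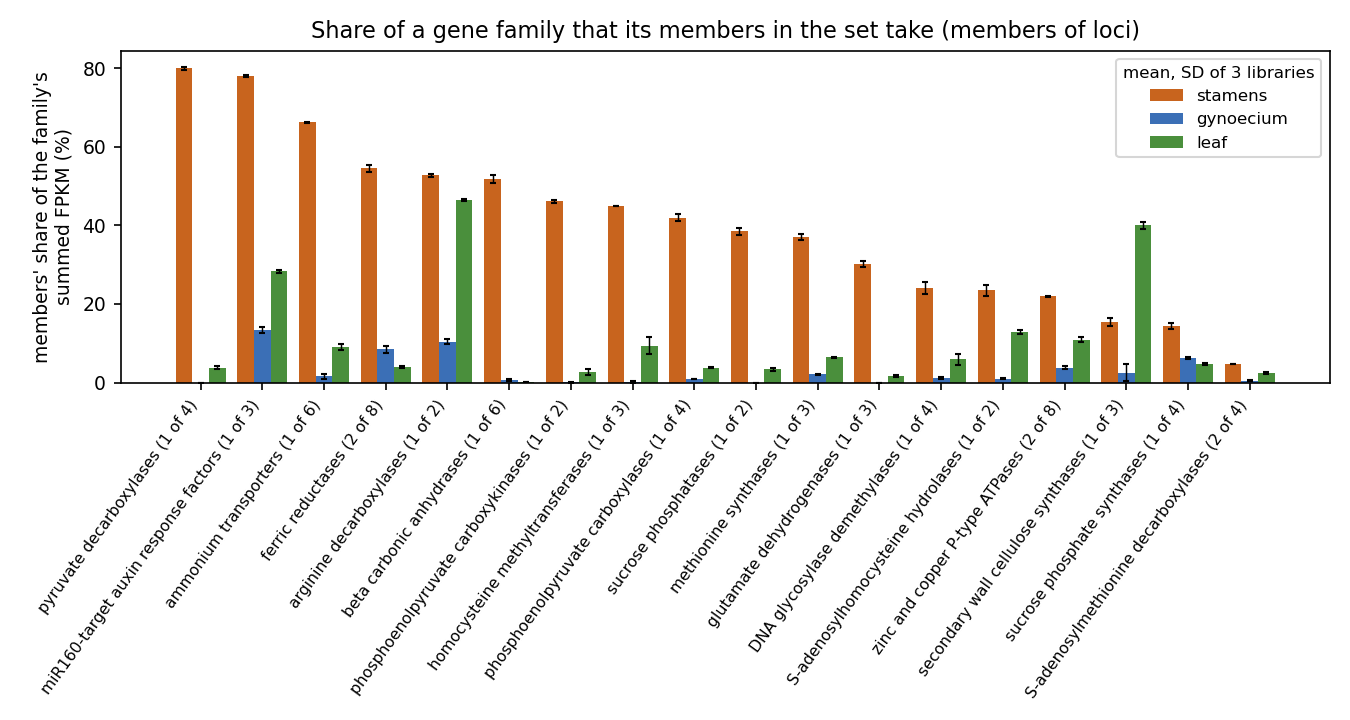
Share of a gene family's summed FPKM, in percent, that its members of the set took in stamens, gynoecium and leaf; bars are means and error bars SD of 3 libraries. Stamens have the highest share in 17 of 18 families and gynoecia a lower share than leaf in 15, while the secondary wall cellulose synthase IRX1 takes 15.4% of its family in stamens and 40.0% in leaf. The rule picked members high in stamens and low in gynoecia, so these directions are largely fixed by it and nothing is read from the counts. AMT1;1, AMT1;5, FRO5 and PDC3 have no FPKM value and add nothing to their families.

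Pathway lists were counted for genes beyond the members. Only 17 members are in the 22 lists, so the counts that follow are of list genes outside the set. All list counts, here and below, stand against the shares over all genes tested. In stamens 50.0% of these were called higher than leaf and 37.9% lower, and in gynoecia 42.6% and 40.0%. With library totals, 11582 of the 20827 genes were higher and 6820 lower in stamens, and 11804 and 5731 in gynoecia. In fatty acid beta-oxidation and the glyoxylate cycle, 25 genes were tested and none is a member. Of these, 19 were higher and 5 lower in stamens than in leaf, with a median log2 change of 0.66, against 0.23 over all genes tested. In gynoecia 4 were higher and 18 lower than in leaf (median -0.45, against 0.00 over all genes tested), a direction that turned to 13 higher and 9 lower with library totals. Both calls together were made for 12 of the 25, and for 5 with library totals, against 7.74% and 4.93% of all genes tested. The 3-ketoacyl-thiolase gene PKT3 (AT2G33150) stood at 2360.4 ± 39.9 CPM in stamens, 629 ± 8.31 CPM in gynoecia and 1021 ± 31.4 CPM in leaf (log2 change 0.98, edgeR adjusted p = 8.42e-38 in stamens against leaf, and -1.34, adjusted p = 8.86e-45 in gynoecia). ACX5, an acyl-CoA oxidase, missed the gynoecium limit, at 131 ± 3.52 CPM in stamens, 9.48 ± 0.908 CPM in gynoecia and 18.7 ± 0.694 CPM in leaf.

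Proline and amine metabolism (21 genes) had 14 higher and 6 lower in stamens and 5 higher and 15 lower in gynoecia, with both calls in 8, and in 4 with library totals, which turned the gynoecium split to 8 higher and 10 lower. P5CS1, the entry enzyme of proline synthesis, stood at 153 ± 4.06 CPM in stamens, 55.8 ± 0.531 CPM in gynoecia and 82.8 ± 6.37 CPM in leaf, and the polyamine oxidase gene PAO4 at 149 ± 1.60 CPM in stamens, 15.5 ± 0.984 CPM in gynoecia and 29.1 ± 2.66 CPM in leaf. Autophagy (28 genes) had 17 higher and 4 lower in stamens and 6 higher and 16 lower in gynoecia. Library totals turned the gynoecium split to 10 higher and 9 lower. Both calls were made in 8, and in 5 with library totals, and the list holds 1 member, G18F. Its gene APG9, which supplies membrane to autophagosomes, stood at 116 ± 4.88 CPM in stamens, 25.7 ± 2.06 CPM in gynoecia and 42.2 ± 1.11 CPM in leaf. Among 36 genes of galactolipids and phosphate starvation both calls were made in 10, and in 7 with library totals. In stamens 25 of them were higher and 9 lower. In gynoecia 8 were higher and 21 lower, or 12 and 14 with library totals. MGD2, a galactolipid synthase induced by phosphate shortage, stood at 186 ± 6.22 CPM in stamens, 28.3 ± 0.229 CPM in gynoecia and 49.6 ± 3.31 CPM in leaf, and the acid phosphatase gene PAP17 at 74.4 ± 3.95 CPM in stamens, 3.23 ± 0.676 CPM in gynoecia and 42.7 ± 0.976 CPM in leaf. Secondary cell wall and endothecium genes (20 outside the set) were higher in stamens in 16 and lower in 4. In gynoecia 4 were higher and 9 lower, which library totals turned to 6 and 4. Both calls were made in 6, or 3 with library totals. The laccase gene IRX12 had 265 ± 4.73 CPM in stamens, 0 counts in gynoecia and 0.395 ± 0.162 CPM in leaf.

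Sugar and starch genes (48 outside the set) had 25 higher and 19 lower in stamens, near the 50.0% and 37.9% of all genes tested. In gynoecia 14 were higher and 28 lower, against 42.6% and 40.0% of all genes tested. Library totals gave 17 higher and 22 lower in gynoecia. Both calls were made in 9, or 6 with library totals. Potassium and other ion channel genes (39) had 27 higher and 9 lower in stamens and 12 higher and 17 lower in gynoecia, with both calls in 8, or 4 with library totals, which turned the gynoecium split to 19 higher and 11 lower.

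All 44 genes of the photosynthetic light reactions and all 20 of the Calvin cycle were lower than leaf in both floral organs, under either scaling, and the set holds none of them. All 28 tapetum and pollen wall genes and all 37 mature pollen genes outside the set were higher in stamens. Of the 28 tapetum and pollen wall genes, 18 were called higher and 1 lower in gynoecia than in leaf, or 20 and 0 with library totals. Of the 37 mature pollen genes, 12 were called higher and 1 lower in gynoecia than in leaf, under either scaling. A gene without leaf counts could not be called lower, and 12 of 12 genes of the separate tapetum marker list and 13 of 15 of the pollen marker list were at 0 in leaf. Cell cycle genes (30) were higher than leaf in gynoecia in 26 and lower in 3, with both calls in 0, and gynoecium and ovule genes (28) were higher in 26 and lower in 1, with both calls in 0, and these counts were the same or differed by 1 gene with library totals. Senescence and carbon starvation genes (27 outside the set) had 15 higher and 11 lower in stamens and 9 higher and 16 lower in gynoecia, or 12 and 12 in gynoecia with library totals, with both calls in 4, or 3 with library totals. The 4 members of that list were BCB, NAC6, DIN9 and BCAT-2.

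The remaining lists are given with genes called higher and lower than leaf, outside the set. Of all genes tested, 50.0% were called higher and 37.9% lower in stamens, and 42.6% and 40.0% in gynoecia. Both calls were made for 7.74% of them, or 4.93% with library totals. The stamen splits of abscisic acid and circadian clock genes were near the shares of all genes. Abscisic acid and dehydration genes (45) had 23 higher and 19 lower in stamens and 17 higher and 25 lower in gynoecia, a split that turned to 22 and 19 in gynoecia with library totals, with both calls in 5 under either scaling. Phenylpropanoid and flavonoid genes (30) had 19 higher and 7 lower in stamens and 15 higher and 12 lower in gynoecia, with both calls in 7, or 6 with library totals. Jasmonate genes (32) had 11 higher and 17 lower in stamens and 10 higher and 18 lower in gynoecia, which became 14 and 14 in stamens and 16 and 14 in gynoecia with library totals, with both calls in 3 under either scaling. Triacylglycerol and oil body genes (13) had 7 higher and 5 lower in stamens and 5 higher and 6 lower in gynoecia, or 7 and 6 in gynoecia with library totals, with both calls in 2, or 3 with library totals. Cuticular wax and cutin genes (33) had 24 higher and 8 lower in stamens and 25 higher and 6 lower in gynoecia, with both calls in 2 under either scaling. Circadian clock genes (28) had 13 higher and 12 lower in stamens and 11 higher and 16 lower in gynoecia, or 17 and 10 in gynoecia with library totals, with both calls in 1 under either scaling. Salicylate and defence genes (34) had 4 higher and 29 lower in stamens and 0 higher and 33 lower in gynoecia, with both calls in 3, or 1 with library totals. Auxin and gibberellin response genes (46) had 24 higher and 16 lower in stamens and 27 higher and 13 lower in gynoecia, with both calls in 3, or 1 with library totals.

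Gynoecium counts of 0 were a large part of the set. No gynoecium library had a count for 67 members, and 150 to 155 members had a count in a given gynoecium library, against 224 in each stamen and leaf library. The 67 had 51 to 1751 counts over the 3 leaf libraries (median 128), which puts them at least 6.08-fold below leaf, with a median bound of 15.2-fold and 48 members at 10-fold or more. Against stamens the median bound was 146-fold. Another 6 members had 1 or 2 counts over the gynoecium libraries. Why no count was so much more common than 1 or 2 counts was not tested. The bounds take each 0 as a matter of sampling. AT5G25820, an exostosin-family protein, had 1809 counts in stamens, 1 in gynoecia and 606 in leaf, a ratio of leaf to gynoecium of 650 (exact 95% interval 116 to 25705). AT4G34320, a membrane protein of unknown function, had 1785, 1 and 318 counts in the same tissues, a ratio of leaf to gynoecium of 341 (60.8 to 13509). Each count lay in 1 library, and without it the gynoecium level was bounded at 0.0139 of leaf for AT5G25820 (replicate 3) and 0.0269 for AT4G34320 (replicate 1). In the whole table, 194 loci with at least 10 CPM in leaf had no count in gynoecia and 84 had none in stamens, and only 4 of the 194 are members.

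What the members share beyond their levels was examined in the annotation. Descriptions naming a transporter, channel, antiporter, exchanger or carrier were held by 18 members (8.04%) and by 2.84% of 20316 tested nuclear coding genes. Descriptions with the word kinase in any sense, the carboxykinase PCK2 and the lipid kinase PIP5K4 included, were held by 6.25% of members and 5.73% of tested genes. The members' median of 5 exons equalled that of tested genes, and their median exon length was 1957 bases, against 1774.5. Chromosomes 1 to 5 held 64, 33, 52, 32 and 43 members, or 28.6%, 14.7%, 23.2%, 14.3% and 19.2%, where tested genes had 26.2%, 15.2%, 20.04%, 15.1% and 23.4%. Members were scattered, and only 3 pairs had at most 1 locus between them: HMT3 with the kinase gene AT3G22750, AT3G23870 with the F-box gene AT3G23880, and AT5G46220, a membrane protein, with KAT1. Exon bases were shared with another locus in 56 members, over 20% of them in 5 and at most 49.2%, in AT3G26130, and without a stated strand setting reads there cannot be assigned with certainty. Runs of 50 bases shared with another locus were found in 19 members, over 20% of the length in none.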

How the data were processed

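Total RNA of 9 libraries was sequenced. The authors deposited a table of whole-number counts of reads per locus and a table of FPKM, fragments per length and depth. Per the submitters' processing notes, the tools were HTSeq 0.6.0, TopHat2, HISAT2 2.1.0 and Bowtie2 2.2.3, and the build was TAIR10. Their order, the strand setting and the annotation release are not given in the sources used here. CPM was computed from the counts and each library's column total. FPKM was used where genes are compared with each other.

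All 20827 genes that passed edgeR's filterByExpr were fitted in 1 quasi-likelihood model (edgeR 4.0.16 in R 4.3.3, TMM, robust, 1 mean per group, 9 libraries), with Benjamini-Hochberg adjustment and a threshold of 0.05. Simulated counts for the comparison of male with leaf gave 32, 47, 50 and 50 of 50 changed genes recovered at 1.25-fold, 1.5-fold, 2-fold and 4-fold, with 9 false calls among 20174 genes. In the simulation only these genes were changed, all upward in male, and every other gene had 1 mean in all tissues. In the data 87.9% of genes were called for this comparison, so the simulation does not measure the error of these contrasts. Replicate libraries were compared by chi-square of their counts, over loci with at least 20 counts in the pair. Members had been selected on all 3 group means, so no test of a member is given. The members and all gene lists were chosen with earlier results of these data known, and the relatives and role groups after their values were seen.

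The named members are the 8 of highest stamen FPKM, of highest ratio of stamens to leaf, of lowest ratio of gynoecium to leaf and of highest leaf FPKM, members in a list, leading transcription factors and family members, genomic neighbours, and loci at each threshold. Others in the role groups, and the further members given by name, were chosen after their values were seen. Symbols, neighbours and upstream sequences come from the RefSeq annotation of TAIR10.1, which matched 32548 of 32833 loci. Of 934 list entries, 881 matched a locus. A group without a count was given the value of 3 counts per library, 0.160 to 0.187 CPM, and folds against it are bounds. Where a ratio of leaf to a gynoecium group with 1 to 3 counts is given, it has an exact 95% interval. Bounds and intervals cover counting error only. Tables were made with Python 3.11.15 with matplotlib 3.10.9, scipy 1.17.1, numpy 2.4.6 and pandas 2.3.3. DESeq2 1.42.0, other scalings, filters and thresholds, the replicate block and each library left out were tried as alternatives.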

Additional observations from a re-analysis of the deposited data

How the results depend on the processing

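The number of members was 387 with 1.5-fold limits and 129 with 3-fold limits, against 224. It was 317 with TMM-scaled library sizes (197 of the 224 kept) and 318 with DESeq2 size factors (198 kept), and 222 to 231 with 1 library left out (214 to 224 kept). The median ratio of stamens to leaf was 5.03 with TMM, 5.09 with DESeq2 factors and 5.64 with totals that leave out organelle genes, against 5.91. That of gynoecium to leaf was 0.0992, 0.0998 and 0.148 under the same settings, against 0.155. That of stamens to gynoecium was 67.5 with TMM and 67.9 with DESeq2 factors, against 50.7. Of 1080 alternative values of 120 ratios of named members, 0 changed direction, and 280 of 360 values under another scaling moved by over the replicate SD. With 1 library left out, 106 of 720 moved by over that SD, and 7 by over 1.5 times, all in gynoecia: HMT3, IRX1, AT5G25820 and AT4G34320 as given above, CID9 (0.00698 of leaf without replicate 1), ARI3 (0.0423 without it) and BPS3, whose 1 gynoecium count is in replicate 1, so that 0.0638 of leaf without it is an upper bound. With all libraries, the ratio of leaf to gynoecium of BPS3 was 144 (exact 95% interval 25.3 to 5716).

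The edgeR test called 18305 genes between stamens and leaf, 17192 between gynoecium and leaf and 17773 between stamens and gynoecium. With 1 library left out these were 18185 to 18565, 16972 to 17401 and 17560 to 18095. DESeq2 called 19054, 17373 and 18367, and a fit without the filter on low counts 19843, 18061 and 19444. With the replicate number as a block the counts were 18204, 17100 and 17644. Deviations from the group means of same-numbered libraries correlated at -0.140 to 0.175, and those of differently numbered libraries at -0.135 to 0.142. With 3 libraries per tissue these values depend on each other, so they cannot exclude that the numbers pair the samples. The cause of these shifts was not tested. Low counts limit the gynoecium side most, where 67 members had no count and 6 had 1 or 2. The rule itself picks genes that are low there. Gynoecium library totals (17248590 to 18756860) were not below the range of the other libraries.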
